A study of Rattus norvegicus with 4 samples.

Results

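The 8 genes described here are the opioid receptor genes Oprm1 (mu), Oprd1 (delta), Oprk1 (kappa) and Oprl1 (the nociceptin receptor) and the genes of the opioid peptide precursors Penk (proenkephalin), Pdyn (prodynorphin), Pnoc (prepronociceptin) and Pomc (pro-opiomelanocortin). They were taken by gene symbol from the 32883 genes of the count tables, and each symbol matched 1 gene. The data are single-nucleus RNA counts from the ventral tegmental area (VTA) of adult Sprague-Dawley rats, in 4 droplet libraries: 2 from females and 2 from males. Each library pooled frozen, microdissected tissue of 3 rats aged 90 to 120 days that had received no experimental treatment, and nuclei were sorted on a DNA dye before capture. There was no treated group, so the comparisons are between groups of nuclei within the same 4 libraries and between the sexes.

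Opioid receptors couple to inhibitory G proteins, which lower cyclic AMP, open inwardly rectifying potassium channels and close voltage-gated calcium channels. Enkephalins from Penk act mainly at the delta and mu receptors, dynorphins from Pdyn at the kappa receptor, nociceptin from Pnoc at Oprl1, and beta-endorphin from Pomc mainly at the mu receptor. In the VTA, the textbook account is that mu receptor agonists act on GABA neurons that inhibit dopamine neurons, and that kappa receptor agonists act on the dopamine neurons themselves.

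Nuclei were grouped by raw UMIs (unique transcript molecules) of a few defining genes, and none of the 8 opioid genes entered a gate. There were 2 gates with dopamine markers: 289 nuclei with Th and Slc6a3 and 82 nuclei with Slc26a7 and Gad2. GABA nuclei (Gad1) were divided by Gata3 (239 nuclei), Meis2 (194) or Lum (121), and glutamate nuclei (Slc17a6) by C1ql1 (430), Lmx1a (390) or Sim1 (247). Glial groups were gated on Mog (9084, oligodendrocytes), Pdgfra (1336, oligodendrocyte precursors), Gja1 (2045, astrocytes) and Csf1r (885, microglia). A further 563 GABA and 484 glutamate nuclei carried none of the subgroup genes, and 4022 nuclei passed no gate. Levels are given in CPM, the UMIs of the gene scaled to 1000000 UMIs of that group in that library, with the mean ± SD over 4 libraries. A difference is called where edgeR's quasi-likelihood test on UMI sums gave a Benjamini-Hochberg adjusted p under 0.05, and all neuron groups entered 1 fit with the library as a block. Where a contrast uses the mean of several groups, it is the mean of their fitted log2 levels, with equal weights. The SE after a log2 fold change (±) is the size of that change divided by the square root of the test's F. It was not estimated directly, and it can be smaller than the counting error where a group holds few UMIs.

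The library totals ran from 19714338 to 25824289 UMIs, and 20620 of 21606 barcodes were kept. Of 21570 distinct barcode sequences, 36 occurred in more than 1 library. Median UMIs per nucleus were 6690 to 9292 in the 8 named neuron groups and 1389 to 3225 in the glial groups. Marker sums over genes that were in the tables and in no gate followed the gates for some lists only. The 9 dopamine markers summed to 3149 CPM in Th/Slc6a3 nuclei and 1399 CPM in Slc26a7/Gad2 nuclei, against 264 CPM in C1ql1 nuclei. The 7 microglial markers summed to 8189 CPM in Csf1r nuclei, and 6 oligodendrocyte precursor markers to 11431 CPM in Pdgfra nuclei. The 6 GABA markers summed to 615 CPM in Gata3, 669 in Meis2 and 956 in Lum nuclei, but also to 599 CPM in Gja1 and 340 CPM in Pdgfra nuclei. The 6 glutamate markers were highest in the dopamine gates (1570 CPM in Th/Slc6a3 and 1822 CPM in Slc26a7/Gad2 nuclei), above the 3 glutamate groups (306 to 926 CPM). Markers of hypothalamic or mammillary neurons differed between libraries in the Sim1 group (444, 91.8, 587 and 309 CPM in female 1, female 2, male 1 and male 2), and female 2 was lowest.

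Oprm1 and Oprd1 were highest in the same 2 GABA groups, those with Meis2 and with Lum, so the 250 bases upstream of their start sites are shown from RefSeq (GRCr8). The tables used here had such an entry for 4 of the 8 genes: Oprm1, Oprd1, Pdyn and Pomc. For Oprm1 the window lies upstream of the downstream of its 2 RefSeq starts, at chr1:45585733-45585982 on the plus strand. For Oprd1 it is at chr5:149625000-149625249 on the minus strand. Capitals mark a GC box (GGGCGG on either strand).
Oprm1: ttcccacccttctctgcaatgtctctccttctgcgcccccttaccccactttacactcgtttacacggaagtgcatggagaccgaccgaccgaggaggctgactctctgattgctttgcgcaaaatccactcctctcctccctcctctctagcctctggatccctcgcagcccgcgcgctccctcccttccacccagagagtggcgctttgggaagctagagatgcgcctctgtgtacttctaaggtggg
Oprd1: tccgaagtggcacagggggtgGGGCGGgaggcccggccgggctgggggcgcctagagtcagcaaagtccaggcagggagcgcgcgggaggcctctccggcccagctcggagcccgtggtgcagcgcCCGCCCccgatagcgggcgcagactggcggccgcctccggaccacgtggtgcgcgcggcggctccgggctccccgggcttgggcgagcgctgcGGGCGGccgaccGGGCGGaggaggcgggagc
The Oprd1 window was 79.6% G or C and held 4 GC boxes. The Oprm1 window was 58.4% G or C and held 0. The window of the upstream Oprm1 start, at chr1:45565121-45565370, was 36.4% G or C and also held 0. Over 33469 RefSeq windows of the same length, the median G or C share was 51.2% (5th to 95th percentile 34.0 to 72.8%), and 30.5% held a GC box. These letters describe the windows and were not related to the levels.

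Oprm1, the mu receptor gene, was highest in Meis2 GABA nuclei. Its level there was 616, 475, 387 and 404 CPM in female 1, female 2, male 1 and male 2 (471 ± 104). In Lum GABA nuclei it was 317, 411, 373 and 379 CPM (370 ± 39.4). The ranges of these groups overlapped, and their difference did not pass the test (log2 fold change 0.31 ± 0.16 SE, adjusted p = 0.36). Every library of both groups lay above every library of every other named group. Gata3 GABA nuclei had 96.4, 135, 108 and 38.6 CPM (94.5 ± 40.6), with male 2 lowest. The fall from Meis2 to Gata3 nuclei was called (log2 fold change -2.37 ± 0.16, edgeR adjusted p = 2.52e-15), as was that from Lum to Gata3 nuclei (-2.06 ± 0.18, 7.59e-13).

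The 3 glutamate groups carried intermediate Oprm1. The mean was 73.6 ± 1.84 CPM in Lmx1a nuclei, 60.6 ± 7.88 in C1ql1 nuclei and 54.4 ± 18.9 in Sim1 nuclei. The ranges of C1ql1 and Sim1 nuclei overlapped, and those of Lmx1a and C1ql1 nuclei did not. No Oprm1 difference between glutamate groups was called (adjusted p = 0.103 to 0.60). Th/Slc6a3 nuclei had 5.75, 15.2, 5.37 and 6.85 CPM (8.29 ± 4.64), from 24 UMIs in 16 of 289 nuclei. Slc26a7/Gad2 nuclei had 2 Oprm1 UMIs in 82 nuclei, both from female libraries. The ratio of the pooled level in Meis2 nuclei to that in Slc26a7/Gad2 nuclei was 168, with a 95% exact counting interval of 46.4 to 1394 that covers counting error only.

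**Figure D1:**
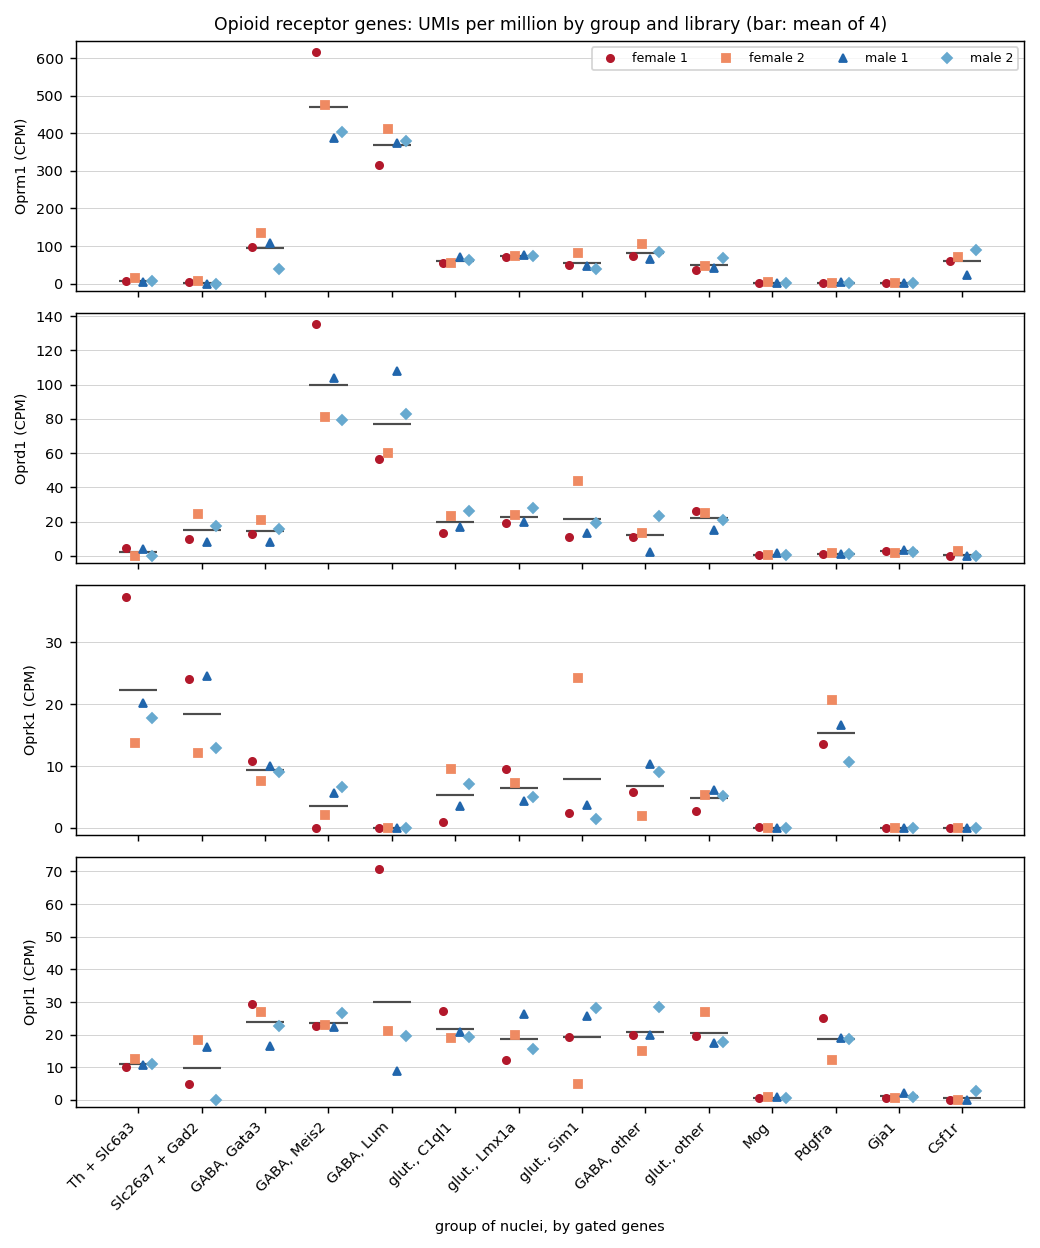
Levels of the 4 opioid receptor genes (CPM, vertical axes from 0) in each group of nuclei (horizontal axis), with 1 point for each of 4 libraries and a bar for their mean. Oprm1 and Oprd1 peak in the Meis2 and Lum GABA groups, Oprk1 is highest on average in the dopamine gates and in Pdgfra nuclei, and Oprl1 lies at 9.85 to 30.1 CPM on average in every neuron group named.

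Oprd1, the delta receptor gene, was highest in the same 2 groups. It measured 135, 81.0, 104 and 79.6 CPM in Meis2 nuclei (99.9 ± 26.0) and 56.7, 60.0, 108 and 82.7 CPM in Lum nuclei (76.8 ± 23.7). The ranges overlapped and the difference was not called (log2 fold change 0.35 ± 0.27, adjusted p = 0.634). The lowest of these 8 values was above every library of every other named group. The next groups (Lmx1a, Sim1 and C1ql1 glutamate, Slc26a7/Gad2 and Gata3 GABA) had means of 14.4 to 22.6 CPM and overlapped one another. Gata3 nuclei were lower than Meis2 nuclei (log2 fold change -2.84 ± 0.31, edgeR adjusted p = 9.97e-10) and lower than Lum nuclei (-2.48 ± 0.35, 2.78e-07).

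The 2 dopamine gates differed in Oprd1. Slc26a7/Gad2 nuclei had 9.63, 24.3, 8.17 and 17.3 CPM (14.9 ± 7.48, 11 UMIs), while Th/Slc6a3 nuclei had 4.32, 0, 4.03 and 0 CPM (6 UMIs in 289 nuclei). Each library of the first was above each of the second, and the ratio of the pooled levels was 7.32 (95% counting interval 2.48 to 24.1). The difference was called (log2 fold change -2.70 ± 0.80 for Th/Slc6a3 minus Slc26a7/Gad2, edgeR adjusted p = 0.0118). It was the only one of the 7 opioid genes tested that was called in that contrast, where 18% of all 9941 genes were called. Without female 2 or without male 2 the call was lost (adjusted p = 0.109 and 0.118).

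Oprk1, the kappa receptor gene, had its highest means in the 2 dopamine gates. Th/Slc6a3 nuclei had 37.4, 13.8, 20.1 and 17.8 CPM (22.3 ± 10.4, 64 UMIs in 54 nuclei) and Slc26a7/Gad2 nuclei 24.1, 12.2, 24.5 and 13.0 CPM (18.4 ± 6.77, 13 UMIs). The ranges overlapped and no difference was called (log2 fold change 0.35 ± 0.53, adjusted p = 0.749). Within the GABA groups, Gata3 nuclei had 9.36 ± 1.44 CPM, Meis2 nuclei 5 UMIs and Lum nuclei 0 UMIs. Set against the 3 UMIs that a count of 0 allows over the Lum group, the pooled level was at least 7.17-fold higher in Th/Slc6a3 nuclei and at least 3.03-fold higher in Gata3 nuclei. The Gata3 minus Lum difference was called (edgeR adjusted p = 0.0213), and leaving out male 1 or male 2 ended that call (0.0925 and 0.0698). The means of the 3 glutamate groups were 5.27 to 7.92 CPM, and their ranges overlapped. Sim1 nuclei of female 2, of which there were 19, had the highest of those values.

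Oprl1, the nociceptin receptor gene, varied least between neuron groups. The 6 GABA and glutamate groups had means of 18.6 to 30.1 CPM with overlapping ranges, and none of the 6 contrasts among them was called for Oprl1. Th/Slc6a3 nuclei had 10.1, 12.4, 10.7 and 11.0 CPM (11.0 ± 0.989). They were lower than the mean of the 3 GABA groups (log2 fold change -1.15 ± 0.33, edgeR adjusted p = 0.00498) and than the mean of the 3 glutamate groups (-0.84 ± 0.31, 0.0409). The first call was lost without female 1 (adjusted p = 0.0906). The second was lost without female 1, male 1 or male 2 (0.0659, 0.176 and 0.112) and by DESeq2 (0.0502). Lum nuclei spread most, with 70.9, 21.0, 8.99 and 19.4 CPM, and female 1 was the high library.

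Among the peptide precursors, Penk was highest in Meis2 GABA and Sim1 glutamate nuclei. In Meis2 nuclei it measured 616, 280, 755 and 199 CPM (463 ± 266). Its 628 UMIs lay in 48 of 194 nuclei, and the 5 nuclei with the most held 32.3% of them. In Lum nuclei, which resembled Meis2 nuclei in Oprm1 and Oprd1, 3 Penk UMIs were counted in 121 nuclei. The ratio of the pooled levels was 145 (95% counting interval 49.3 to 704). Penk was the only opioid gene called between Meis2 and Lum nuclei (log2 fold change 7.02 ± 0.58, edgeR adjusted p = 3.29e-12), where 4.99% of all genes were called.

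Sim1 glutamate nuclei had 382, 67.6, 429 and 216 CPM of Penk (274 ± 165), with 829 UMIs in 129 of 247 nuclei. Female 2, which supplied 19 of these nuclei, was the lowest, and it was also lowest in the summed hypothalamic or mammillary markers given above. The part of those neurons in the Penk level was not tested. Both calls that follow held without female 2. C1ql1 and Lmx1a nuclei had 27.9 ± 11.6 and 27.7 ± 6.71 CPM, and each was lower than Sim1 nuclei (log2 fold changes -3.39 ± 0.27 and -3.33 ± 0.28, edgeR adjusted p = 8.79e-13 and 2.74e-12). Gata3 GABA nuclei had 49.8, 67.5, 79.6 and 102 CPM (74.8 ± 22.0), between Meis2 and Lum nuclei, and both differences were called (log2 fold change -2.71 ± 0.26 against Meis2, adjusted p = 2.19e-11, and 4.31 ± 0.85 against Lum, 0.00012). The dopamine gates had 5 UMIs in 2 Th/Slc6a3 nuclei and 1 UMI in Slc26a7/Gad2 nuclei.

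**Figure D2:**
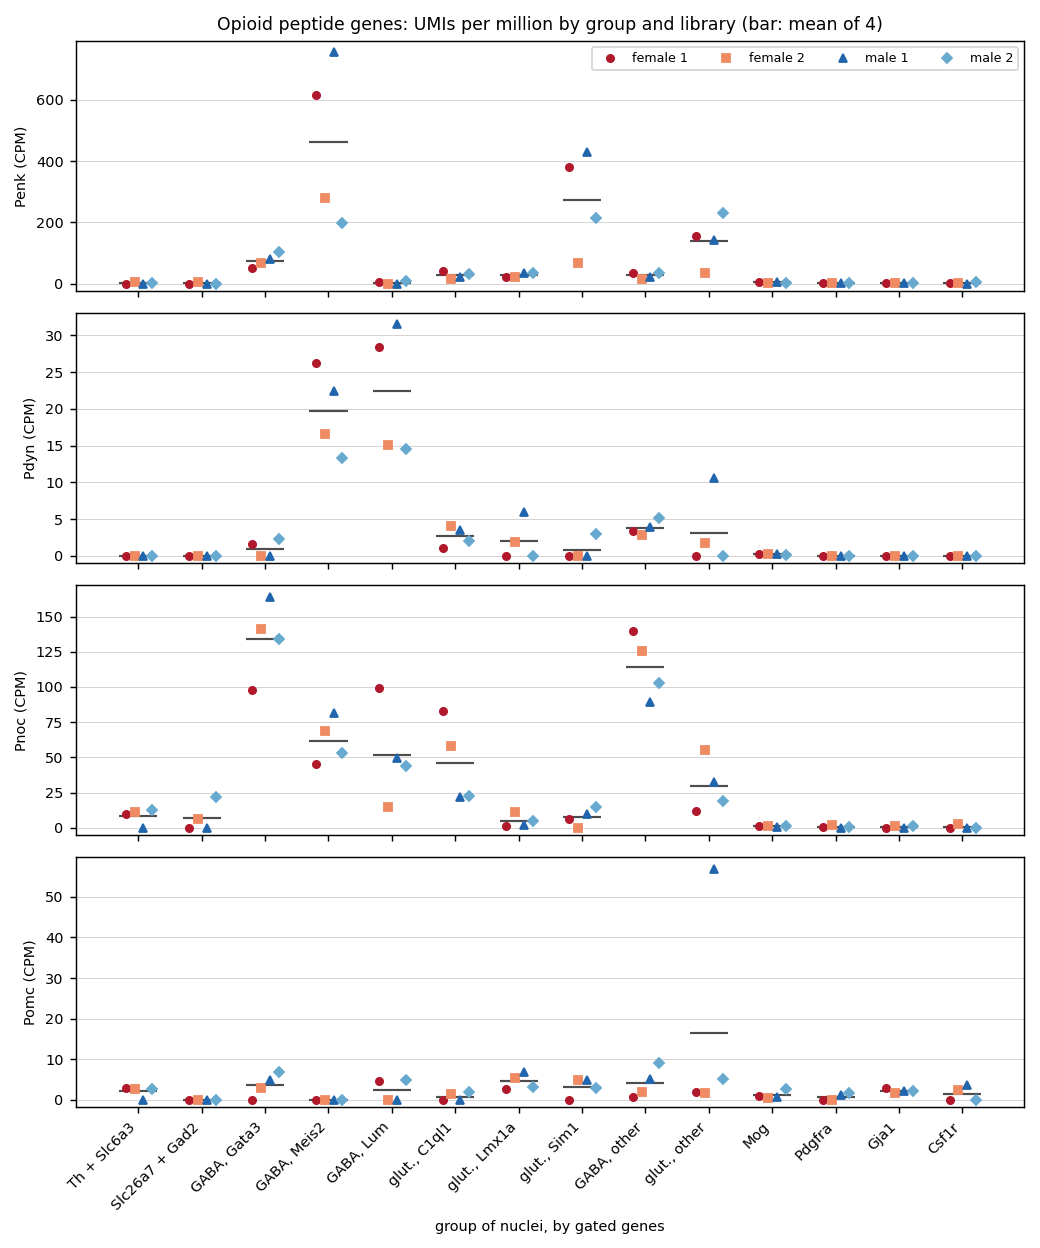
Levels of the 4 opioid peptide precursor genes (CPM, vertical axes from 0) in each group of nuclei (horizontal axis), with 1 point for each of 4 libraries and a bar for their mean. Penk peaks in Meis2 and Sim1 nuclei with wide spread between libraries, Pdyn in Meis2 and Lum nuclei and Pnoc in Gata3 nuclei, while the high Pomc point of male 1 among other glutamate nuclei comes from 1 nucleus.

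Pdyn was sparse. Of its 185 UMIs in kept nuclei, 37.8% lay in the 8 named neuron groups and 39.5% in nuclei that passed no gate. Among the named groups, Pdyn had its highest levels in the 2 that had the most Oprm1. It measured 26.3, 16.6, 22.5 and 13.3 CPM in Meis2 nuclei (19.7 ± 5.83, 27 UMIs in 20 nuclei) and 28.3, 15.0, 31.5 and 14.6 CPM in Lum nuclei (22.4 ± 8.82, 21 UMIs in 17 nuclei). These ranges overlapped, and both lay above every library of all other named groups. Gata3 nuclei had 2 Pdyn UMIs, and the ratio to them was 22.6 in Meis2 nuclei (95% counting interval 5.68 to 196) and 25.4 in Lum nuclei (6.21 to 223). Both differences were called (edgeR adjusted p = 0.000106 and 6.71e-05). Neither dopamine gate had a Pdyn UMI. Against the 3 UMIs that this allows over the Th/Slc6a3 group, Pdyn was at least 20.8-fold higher in Lum nuclei and at least 18.5-fold higher in Meis2 nuclei.

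Pnoc, the precursor of nociceptin, had another order within the GABA nuclei. Gata3 nuclei had 98.0, 141, 164 and 134 CPM (134 ± 27.4), in 94 of 239 nuclei. Meis2 nuclei had 45.1, 68.5, 81.4 and 53.0 CPM (62.0 ± 16.2) and Lum nuclei 99.2, 15.0, 49.5 and 43.8 CPM (51.9 ± 35.0). Every Gata3 library lay above every Meis2 library, while the Lum range reached into the Gata3 range through female 1. The differences were called by edgeR (log2 fold change 0.97 ± 0.33, adjusted p = 0.0454 against Meis2, and 1.37 ± 0.39, 0.00851 against Lum) but not by DESeq2 (0.427 and 0.207). The first was also lost without the replicate block (0.0856) and without female 2, male 1 or male 2 (0.107, 0.0897 and 0.124). The second was also lost without female 2 (0.148). The 563 GABA nuclei with no subgroup gene had 114 ± 22.7 CPM.

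Among glutamate nuclei, Pnoc was highest in the C1ql1 group, with 83.1, 58.1, 21.9 and 22.3 CPM (46.3 ± 29.8). It was called against Lmx1a nuclei, which had 4.73 ± 4.43 CPM (log2 fold change 3.32 ± 0.52, edgeR adjusted p = 4.15e-05), and against Sim1 nuclei, which had 7.64 ± 6.23 CPM (2.20 ± 0.49, 0.00101). The second call was lost without female 1 (adjusted p = 0.0711). In the C1ql1 minus Lmx1a contrast 2.42% of all genes were called, and Pnoc was the only opioid gene among them. When the C1ql1 group was split by a Th UMI, a division made after seeing the data, the 303 nuclei without Th had 125, 77.8, 27.3 and 30.3 CPM of Pnoc and the 127 nuclei with Th had 11.1, 5.00, 8.88 and 3.41 CPM. Every library without Th lay above every library with it. Oprm1 did not follow that division (59.5 ± 5.48 CPM without Th and 62.6 ± 17.0 with it).

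Pomc was low in every named group, with means of at most 4.58 CPM, and 0 UMIs in Meis2 and Slc26a7/Gad2 nuclei. The highest mean was in Lmx1a nuclei (2.73 to 6.83 CPM, in 16 of 390 nuclei), a range just above that of Mog nuclei (0.516 to 2.72 CPM). The filter on low counts left Pomc out of the fits between groups of nuclei. Glutamate nuclei with no subgroup gene had 1.85, 1.79, 56.9 and 5.21 CPM, and male 1 stood apart. In that library 1 nucleus of 25806 UMIs held 71 Pomc UMIs, which is 20.3% of all Pomc UMIs in kept nuclei, and without it the level was 3.10 CPM. Another male 1 nucleus, which passed no gate, held 59 Pomc UMIs.

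The dopamine gates were also set against the mean of the 3 GABA groups and of the 3 glutamate groups. These are means of log2 levels, and a gate lower than the mean need not be lower than each group. Penk in Lum nuclei (0 to 9.72 CPM) overlapped Th/Slc6a3 (0 to 5.52 CPM) and Slc26a7/Gad2 nuclei (0 to 6.08 CPM). Oprd1 in Gata3 nuclei (8.29 to 21.0 CPM) overlapped Slc26a7/Gad2 nuclei (8.17 to 24.3 CPM). Against the GABA mean, all 7 genes tested in Th/Slc6a3 nuclei were called (6 lower and Oprk1 higher), in a contrast where 33.8% of all genes were called (17.8% higher and 16% lower). The log2 fold changes were -4.88 ± 0.23 for Oprm1, -4.35 ± 0.43 for Oprd1, -4.61 ± 1.24 for Penk and -3.09 ± 0.43 for Pnoc (edgeR adjusted p from 1.32e-21 to 0.00281). Those of Oprk1 and Pdyn rest on groups with 0 UMIs and are not given as sizes. Against the glutamate mean 5 of 7 were called, with a background of 26.3% (13.7% higher and 12.6% lower): Oprm1, Oprd1, Oprl1 and Penk lower, and Oprk1 higher (2.11 ± 0.35, adjusted p = 5.64e-06).

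Slc26a7/Gad2 nuclei gave 5 calls of 7 against the GABA mean (background 14.3%, with 7.02% higher and 7.27% lower): Oprm1 (-6.42 ± 0.47), Oprd1 (-1.65 ± 0.45), Penk (-4.91 ± 1.58) and Pnoc (-3.15 ± 0.70) lower, and Oprk1 higher. Against the glutamate mean 2 of 7 were called (background 11.1%), Oprm1 (-4.34 ± 0.65) and Penk (-5.20 ± 1.10), while Oprk1 missed the threshold (1.77 ± 0.60, edgeR adjusted p = 0.0507). Slc26a7/Gad2 nuclei held 2 Oprm1 UMIs and 1 Penk UMI, so the sizes for these genes carry counting error that the SE may understate. The Penk call against the GABA mean was lost without the replicate block (adjusted p = 0.0626) and without female 1 or male 2 (0.110 and 0.220), and that of Th/Slc6a3 nuclei without male 2 (0.0676). Among the GABA groups, 5 of 7 genes were called between Gata3 and Meis2 nuclei (background 11.4%) and 6 of 7 between Gata3 and Lum nuclei (17.8%). Among the glutamate groups, 2 of 7 were called between C1ql1 and Sim1 nuclei (11.3%) and 1 of 7 between Lmx1a and Sim1 nuclei (9.69%). In all, 36 of 77 gene and contrast pairs were called, where the share over all genes ran from 2.42 to 33.8% by contrast. The contrasts share groups, so these are not independent counts.

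Outside neurons, 3 of the 8 genes passed the filter on low counts in the glial fit, and a gene passes that filter through the group in which it is high. Oprk1 in Pdgfra nuclei measured 13.5, 20.7, 16.7 and 10.7 CPM (15.4 ± 4.30, 63 UMIs in 60 nuclei), a range that overlapped that of the dopamine gates. Mog nuclei had 1 Oprk1 UMI in 9084 nuclei, and Gja1 and Csf1r nuclei had 0. The pooled level in Pdgfra nuclei was at least 36.7-fold higher than in Gja1 nuclei and at least 6.91-fold higher than in Csf1r nuclei, against 3 UMIs over each group. Oprl1 in Pdgfra nuclei measured 25.2, 12.2, 19.1 and 18.7 CPM (18.8 ± 5.28), against 0.690 to 1.10 CPM in the other 3 glial groups. Every Pdgfra library was above every library of those groups for both genes. The Pdgfra differences from the mean of the other 3 groups were called (edgeR adjusted p = 8.10e-14 for Oprk1 and 7.43e-14 for Oprl1, log2 fold change 4.36 ± 0.37 for Oprl1), where 56.3% of all genes were called. DESeq2 gave an adjusted p of 0.0563 for Oprk1.

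Oprm1 in Csf1r nuclei measured 59.2, 69.7, 21.9 and 88.3 CPM (59.8 ± 28.0, 85 UMIs in 78 of 885 nuclei), and the range overlapped those of the 3 glutamate groups. The other glial groups had 2.23 to 2.50 CPM, below every Csf1r library. The difference was called (log2 fold change 4.57 ± 0.30, edgeR adjusted p = 8.52e-18), with a background of 60%. The 78 Csf1r nuclei with an Oprm1 UMI had 7638 CPM of the microglial markers and 113 CPM of 5 neuronal markers, against 8169 and 148 CPM in the 807 without. They had 0 UMIs of Meis2, 2 of Gad1 and 1 of Penk. Oprm1 was also called in Mog, Gja1 and Pdgfra nuclei, in the lower direction and against a mean that holds the Csf1r group (backgrounds 66.2%, 62.5% and 56.3%).

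In RefSeq the Oprm1 gene overlaps Ipcef1, which is on the other strand, and no source used here gives the strand setting of the counting, so reads of the 2 genes may not be told apart. Ipcef1 measured 112, 119, 120 and 135 CPM in Csf1r nuclei (122 ± 9.63), in 136 nuclei. Of these, 15 also had an Oprm1 UMI, where 12.0 are given by the product of the shares. In Meis2 nuclei 73 had both, where that product gives 57.2, and in Lum nuclei 59 against 55.3. Gata3 nuclei had 6 against 5.11, C1ql1 nuclei 39 against 22.3, Lmx1a nuclei 41 against 25.5 and Sim1 nuclei 18 against 7.85. The product takes no account of depth. The ratio of mean Oprm1 CPM to mean Ipcef1 CPM was 0.491 in Csf1r nuclei, against 4.44 in Meis2, 2.85 in Lum and 13.6 in Gata3 nuclei. In the glutamate groups the ratio was 2.24 in C1ql1, 3.41 in Lmx1a and 2.90 in Sim1 nuclei. Whether reads of Ipcef1 entered the Oprm1 count was not tested. Pomc overlaps Efr3b, which had its highest level in Gja1 nuclei (297 to 319 CPM), where Pomc averaged 2.23 CPM. Pdyn overlaps a locus that has no row by that name in the tables.

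**Figure D3:**
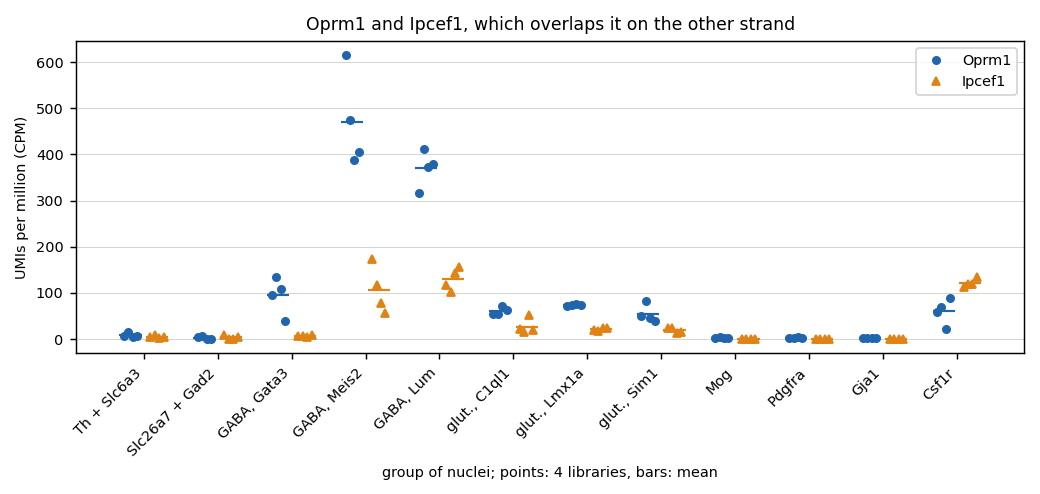
Oprm1 and the overlapping gene Ipcef1 (CPM, vertical axis) in each group of nuclei (horizontal axis), with points for 4 libraries and bars for their mean. Ipcef1 is above Oprm1 in Csf1r nuclei (122 against 59.8 CPM on average) and below it in Meis2, Lum and Gata3 nuclei.

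The mean of the 8 neuron groups was higher than that of the 4 glial groups for 5 of 7 genes tested, in a contrast where 74.9% of all genes were called and 36.9% were higher. The log2 fold changes were 3.06 ± 0.50 for Oprm1, 3.86 ± 0.33 for Oprd1, 2.99 ± 0.29 for Oprl1, 2.65 ± 0.87 for Penk and 4.19 ± 0.46 for Pnoc (edgeR adjusted p from 9.60e-17 to 0.00488). Oprk1 and Pdyn were not called by edgeR but were called by DESeq2 (log2 fold changes 3.47 and 3.07, adjusted p = 9.68e-12 and 8.35e-08). The Penk call was lost without female 2 (adjusted p = 1.00). Gated neurons held 54.9 to 67.2% of the UMIs of each gene other than Pomc (41.3%), and nuclei that passed no gate held 19.6 to 43.6%. Those ungated nuclei had 6735 CPM of 5 neuronal markers, against 6334 CPM in C1ql1 and 167 CPM in Mog nuclei, so neurons that missed a gate are among them.

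Depth differs between groups, so the share of nuclei with a UMI was also computed after thinning every nucleus to 2000 UMIs. Oprm1 was then found in 51.8 ± 4.12% of Meis2 and 53.0 ± 5.25% of Lum nuclei (74.9 ± 4.69% and 88.6 ± 4.21% unthinned). In Mog nuclei, taken as the background of free RNA, it was found in 0.401 ± 0.204% (0.525% unthinned, median 2329 UMIs). Th/Slc6a3 nuclei had 1.31 ± 0.246% (5.52% unthinned, median 8888 UMIs), above that background in the mean, and Slc26a7/Gad2 nuclei 0.485 ± 0.562%, at it. Csf1r nuclei had 10.3 ± 7.21%, and 707 of 885 were left out as too shallow. Oprk1 was found in 4.31 ± 1.63% of Th/Slc6a3, 4.22 ± 2.18% of Slc26a7/Gad2 and 3.03 ± 0.718% of Pdgfra nuclei after thinning (19.0%, 15.9% and 4.74% unthinned), and in 0.00958% of Mog nuclei unthinned.

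The peptides differed from Oprm1 in which groups had the larger shares. Penk was found in 26.3% of Sim1, 21.7 ± 9.83% of Meis2 and 8.93 ± 2.65% of Gata3 nuclei after thinning (45.4%, 25.5% and 16.9% unthinned), with 0.526 ± 0.313% in Mog nuclei. Its share in Sim1 nuclei was above that of Oprm1 there (9.05% thinned and 27.5% unthinned), and in Meis2 nuclei it was below. Pnoc was found in 17.9 ± 3.69% of Gata3 nuclei (39.3% unthinned) and Pdyn in 4.76 ± 1.95% of Lum and 3.52 ± 0.998% of Meis2 nuclei (14.7% and 10.5% unthinned). Thinning changed the Penk share in Meis2 nuclei little, from 25.5% to 21.7%, while the Oprd1 share there went from 41.4% to 16.0%.

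**Figure D4:**
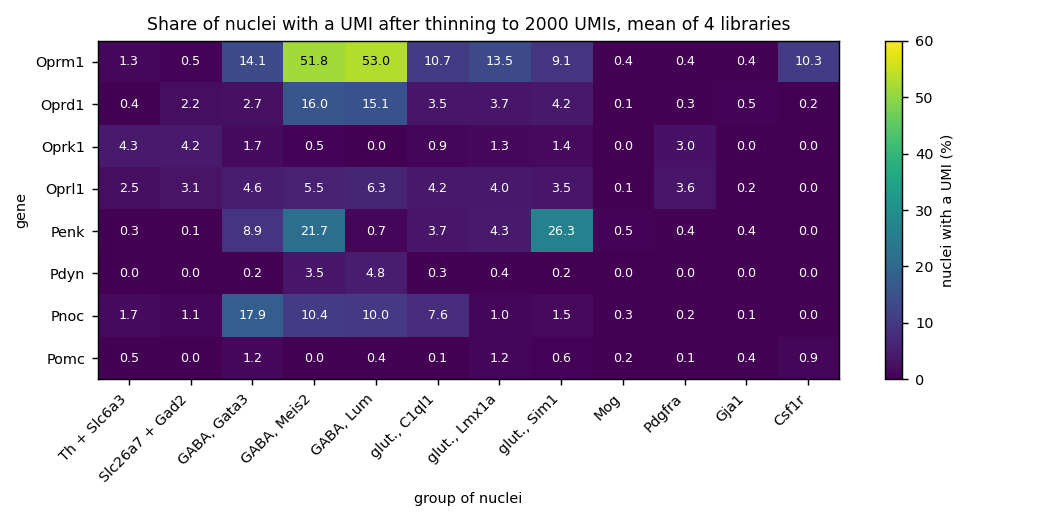
Share of nuclei with a UMI of each gene (color, %) after thinning each nucleus to 2000 UMIs, by gene (vertical axis) and group of nuclei (horizontal axis), as the mean of 4 libraries. The brightest cells are Oprm1 in Lum (53.0%) and Meis2 (51.8%) nuclei, followed by Penk in Sim1 nuclei (26.3%).

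Nuclei with both a receptor and a peptide gene were most frequent on average in the 3 named GABA groups. At least 1 of the 4 receptor genes was detected in 95.7 ± 2.02% of Lum, 81.6 ± 3.25% of Meis2, 58.3 ± 9.87% of Gata3 and 32.6 ± 6.68% of Th/Slc6a3 nuclei. At least 1 receptor gene and at least 1 peptide gene were detected in 43.3 ± 12.1% of Meis2, 41.7 ± 19.4% of Lum and 32.2 ± 11.6% of Gata3 nuclei. The share was 22.7 ± 4.89% in Sim1, 10.9 ± 1.97% in Lmx1a, 8.75 ± 1.68% in C1ql1 and 1.41 ± 2.82% in Th/Slc6a3 nuclei. At least 1 peptide gene was detected in 48.3 ± 14.3% of Meis2, 42.5 ± 18.9% of Lum, 49.9 ± 11.6% of Gata3 and 6.32 ± 4.53% of Th/Slc6a3 nuclei. A share with both kinds rises with each separate share, and it was not set against an expected share here. These shares are unthinned and so rise with depth.

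To set detection apart from depth and group, the number of nuclei with both of a pair was compared with the number expected within group, library and 1 of 5 depth strata. Over all gated neurons, 16 of 28 pairs had at least 20 expected nuclei. Of them, 1 was above expectation in every library and 0 were below it in every library. That pair was Oprm1 and Pnoc, with 228 nuclei observed and 213 expected (Mantel-Haenszel odds ratio 1.23). With 4 libraries, 1 such pair among 16 is about as many as would arise with no association. In Gata3 nuclei it was 51 against 39.5 (odds ratio 2.70, above 1 in 4 of 4 libraries), while in C1ql1 nuclei it was 9 against 17.7. Oprm1 and Oprd1 were found together in 220 nuclei against 202 expected (odds ratio 1.36, above 1 in 3 of 4 libraries), and in Meis2 nuclei in 73 against 59.3. Oprm1 was detected in 43 of the 48 Meis2 nuclei with Penk (38.1 expected) and in 19 of the 20 with Pdyn (15.5 expected).

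Penk and Pdyn, which share Meis2 nuclei as a group, were seldom in the same nucleus. Over all gated neurons 1 nucleus had both, against 10.6 expected, and in Meis2 nuclei 0 had both against 4.41 expected. By library the numbers were 0 of 2.18, 0 of 1.49, 0 of 4.31 and 1 of 2.58 expected in female 1, female 2, male 1 and male 2. Pdyn and Pnoc were together in 29 nuclei against 18.4 expected. Both pairs are below 20 expected nuclei and no ratio is given. Co-detection is a description of these nuclei, which are not replicates.

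**Figure D5:**
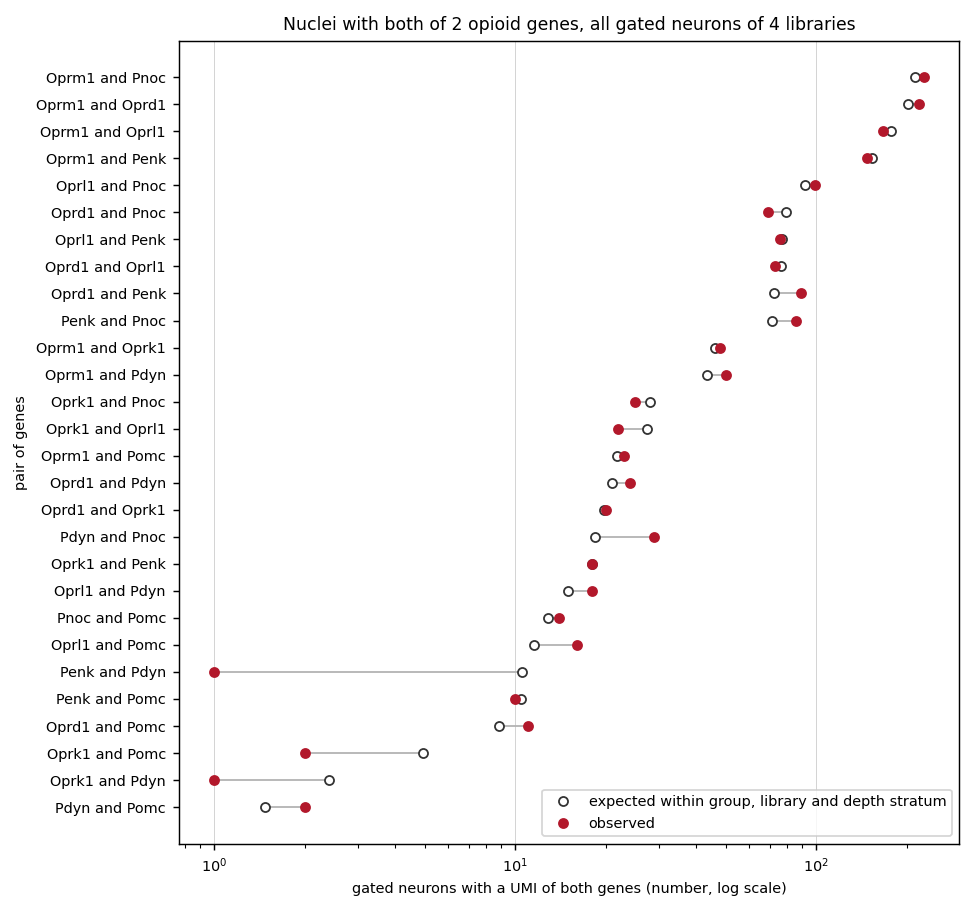
Number of gated neurons with a UMI of both genes of a pair (horizontal axis, log scale), observed (filled) and expected within group, library and depth stratum (open), for pairs of opioid genes (vertical axis). Oprm1 and Pnoc lie slightly above expectation (228 against 213), and the widest gap below expectation is that of Penk and Pdyn (1 against 10.6).

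The genes of the pathway were followed in 5 lists. Of the peptide processing genes (convertases, carboxypeptidases and the amidating enzyme), 8 were tested in the neuron fit. Against the mean of the 3 GABA groups, 1 was higher and 5 were lower in Th/Slc6a3 nuclei (median log2 fold change -0.84, against 0.01 over all genes, of which 33.8% were called), and 1 was higher and 4 were lower in Slc26a7/Gad2 nuclei (-0.87, with 14.3% of all genes called). Against the glutamate mean the counts were 0 higher and 4 lower in Th/Slc6a3 nuclei (-0.33, with 26.3% called) and 1 higher and 1 lower in Slc26a7/Gad2 nuclei (-0.08, with 11.1% called). Gata3 nuclei had 0 higher and 5 lower than Meis2 nuclei (median -0.61, with 11.4% of all genes called) and 0 higher and 5 lower than Lum nuclei (-0.94, with 17.8% called). The amidating enzyme gene Pam was lower in Gata3 nuclei by 2.28 ± 0.15 and 2.83 ± 0.15 on the log2 scale than in Meis2 and Lum nuclei (edgeR adjusted p = 1.52e-16 and 8.40e-20).

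The other 4 lists had medians between -0.61 and 0.33 in the neuron contrasts. Among the 7 G protein and GIRK channel genes tested, 2 were higher and 1 lower in Th/Slc6a3 nuclei than in the GABA mean, where 33.8% of all genes were called. Kcnj6, a GIRK channel subunit, was the highest of them (log2 fold change 3.76 ± 0.20, edgeR adjusted p = 9.73e-20), and it was also higher in Slc26a7/Gad2 nuclei (2.94 ± 0.32, 5.83e-10). Mme, the gene of the enkephalin-degrading enzyme neprilysin, was lower in Th/Slc6a3 nuclei than in the GABA mean (-3.57 ± 0.36) and lower in Gata3 than in Meis2 nuclei (-1.99 ± 0.27). Rgs4, a regulator of G protein signalling, was lower in Meis2 than in Lum nuclei (-1.96 ± 0.46, adjusted p = 0.00434). In Pdgfra nuclei, which had Oprk1 and Oprl1, 9 of 10 adenylyl cyclase and calcium channel genes were higher and 1 lower than in the other glia (median 3.26, against 0.01 over all genes, of which 56.3% were called), and Kcnj6 (7.07 ± 0.56) and Kcnj3 (6.50 ± 0.17) led the lists.

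The genes whose mean levels over the 12 named groups followed each member most closely were listed among 10687 genes, by Pearson's r of log2(CPM + 1) as a description. For Oprm1 they were Tp53i11 (r = 0.966), Ipcef1 (0.904) and Unc13c (0.901), and Ipcef1 is the overlapping gene. For Oprd1 they were Coch, Cacna1i and Syt6 (0.952 to 0.953), and for Oprk1 Adamts19 (0.970), LOC679342 (0.959) and Chrna4 (0.935). Those of Oprl1 were Vat1l, Nptxr and Slitrk3 (0.982 to 0.985), those of Penk Hspa14 (0.937), Trpc7 (0.897) and Aatf (0.884), and those of Pnoc Trmt112 (0.927), Vgf (0.927) and Rrp1 (0.918). With a pseudocount of 10 in place of 1, 1 of 3 stayed for Oprm1, Oprl1 and Pnoc and 2 of 3 for Oprd1, Oprk1 and Penk.

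Between the sexes, 1 of 46 tested gene and group pairs was called, against 0.0785% of all gene and group pairs in the same fits. Pnoc in C1ql1 nuclei was higher in both female libraries (83.1 and 58.1 CPM) than in both male libraries (21.9 and 22.3 CPM), and the groups did not overlap (log2 fold change female minus male 1.68 ± 0.27, edgeR adjusted p = 0.0191). In C1ql1 nuclei 0.0712% of all genes were called. The call was lost without female 1, male 1 or male 2 (adjusted p = 0.223, 1.00 and 0.982), by DESeq2 (0.134), and with stricter gates (0.891 and 0.438). Each sex has 2 pooled libraries. The sex difference in C1ql1 nuclei exceeded the mean of that in the other 7 neuron groups by 1.86 ± 0.45 on the log2 scale, but this did not pass adjustment over all genes (edgeR unadjusted p = 0.000166, adjusted p = 0.732), and the comparison was chosen after the call was seen.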

How the data were processed

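The deposited files are count matrices of raw UMIs per gene and barcode, 1 for each of 4 libraries, made by the authors with Cell Ranger on rn6 per the submitters' processing notes (software version 3.0.2 per the file headers). The annotation and the strand setting of the counting are not stated in the labels or headers. Nuclei with at least 200 genes and at most 5% mitochondrial UMIs were kept. Barcodes with the highest scrublet doublet scores (scanpy 1.11.5) were removed at a set rate of 0.8% per 1000 barcodes of a library. This took out 980 barcodes (4.54%), against 477 at scrublet's own threshold, and 20620 nuclei were left. Groups were gated on raw UMIs: 2 or more for class genes and 1 or more for subgroup genes. Nuclei that met conflicting gates were set apart. UMIs were summed per group and library (at least 10 nuclei) and tested with edgeR 4.0.16 (TMM, filterByExpr, quasi-likelihood) with Benjamini-Hochberg adjustment over all genes of a contrast.

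The library was a block in comparisons between groups, because the groups of a library come from the same pooled rats. Libraries are pools of rats, and in the comparisons between the sexes a p-value measures the spread between pools. In those between groups the block takes out each library's own level, so a p-value measures how far group differences vary between the pools. A simulation of the Meis2 minus Lum contrast over 9638 genes recovered 55.5% of 200 changed genes (23.5% at a log2 change of 1 and 86.3% at 2), with 5.93% false calls. Its changed genes were drawn from those with at least 200 UMIs, with 1 dispersion for all genes and no library effect. Oprk1 (156 UMIs in the 8 named neuron groups) and Pdyn (70) lie below that cut, so these rates do not carry over to them. Alternatives were DESeq2 1.42.0, its size factors, no filter, no block, each library left out, only the groups of a contrast, doublet calls kept, stricter nuclei and other gates. The sex difference against other groups, the split of C1ql1 nuclei by Th and the Pomc level without its top nucleus were chosen after seeing the data. All 8 genes are reported in every gated group. Pathway genes named are those called with the largest changes in a contrast, and genes with like patterns are the 3 with the highest r. The genes, gates and lists were chosen with earlier results of these data known.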

Additional observations from a re-analysis of the deposited data

Results flagged for a closer look

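In the 55 gene and group values with at least 20 UMIs, 4 had 1 library far from the other 3 by Dixon's test, and chance alone flags about 1 in 20. Oprm1 in Th/Slc6a3 nuclei was 15.2 CPM in female 2, against 5.37 to 6.85 CPM in the others. Oprl1 in Meis2 GABA nuclei was 26.5 CPM in male 2, against 22.5 to 22.8 CPM. Pomc in glutamate nuclei with no subgroup gene was 56.9 CPM in male 1, where 1 nucleus held 71 UMIs. Pomc in Mog nuclei was 2.72 CPM in male 2, where 1 nucleus held 7 UMIs.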

How the results depend on the processing

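Of the 36 called neuron pairs, 33 were also called by DESeq2 (34 calls in all), 34 without the replicate block (35), 36 with DESeq2 size factors (37), 36 with no filter (39), 28 with subgroup genes at 2 UMIs (28), 30 with only the groups of the contrast (30), 31 with class genes at 3 UMIs (31) and 29 to 33 with a library left out (29 to 36 calls). The 5 calls of neurons against glia became 7 by DESeq2. The 6 glial calls became 10 when glial genes were gated at 1 UMI, and the 6 were among them. Alternatives were also counted for each called pair, for Oprk1 in Slc26a7/Gad2 against glutamate nuclei and for the Pnoc sex difference against other groups. Of these, 609 kept direction and side of the threshold, 31 lost the call, 6 gained it and 0 changed sign. The 6 were all for that Oprk1 difference (adjusted p = 0.0161 by DESeq2). Alternatives in which a pair was not tested or had no adjusted p were left out. Calls lost to the filter are therefore not among the 31, but they do lower the numbers of shared calls above. The single call by sex became 0 by DESeq2 (4 of 46 pairs at an unadjusted p under 0.05, against 5 by edgeR), 0 with subgroup genes at 2 UMIs, 0 with class genes at 3 UMIs, 2 with no filter and 1 to 5 with a library left out (5 without female 1). With the replicate number as a block, the replicate block gave 3 sex calls. The deviations of same-numbered libraries correlated at 0.351 over 11591 genes, with only 2 pairs, and the labels give the numbers no shared batch or day. Depth limits Pdyn, Oprk1 and Pomc most, with 185, 352 and 349 UMIs in kept nuclei.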
